A study of Mus musculus with 18 samples.

Results

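The comparison described here is the difference between the liver's response to asparaginase at 16 weeks and its response at 8 weeks, (asparaginase minus PBS at 16 weeks) minus (asparaginase minus PBS at 8 weeks) on the log2 scale. It was chosen by its libraries and not by any measured value: the 12 libraries of these ages were used, of 18 in the series. Polyadenylated RNA of whole liver was sequenced from C57BL/6J mice that carried no other allele or transgene named in the labels. The groups compared had 3 mice each: 8 weeks with PBS (8 daily injections), 8 weeks with L-asparaginase (8 daily injections of 3 IU per g body weight), 16 weeks with PBS (7 injections) and 16 weeks with asparaginase (7 injections of the same dose). All injections were into the peritoneum, and liver was taken 7.5 h after the last. The number of injections differed with age, so an effect of the extra injection and an effect of age cannot be told apart. Each PBS group had 2 females and 1 male and each asparaginase group 1 female and 2 males, at both ages. "Mature" and "young" adult stand here only for 16 and 8 weeks.

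Asparaginase is a bacterial enzyme, used against leukaemia, that breaks down asparagine and to a lesser degree glutamine in the blood. Cells sense the loss of an amino acid through uncharged transfer RNA and the kinase GCN2, which slows translation and raises the transcription factor ATF4. ATF4 then acts through promoter elements whose core reads TGATGNAA, among them those of asparagine synthetase and of the serine synthesis enzymes. The liver also makes the acute phase proteins, which hepatocytes release when macrophage cytokines reach them, mainly through STAT3 and NF-kB, and it holds the Kupffer cells, the resident macrophages.

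Total counts per library ranged from 24690871 to 46949361, and 15285 of 37315 genes were tested. Some libraries stood apart in ways the groups do not explain. Markers of several other tissues differed between libraries. The 24 squamous epithelium markers in the table summed to 843 and 431 CPM (counts after scaling each library to 1 common total) in 8-week asparaginase replicates 1 and 2 and to 10.3 to 43.3 CPM in the other 10 libraries. The acinar pancreas list reached 4684 CPM in 16-week asparaginase replicate 3 and stood at 386 CPM in replicate 1, at 633 and 716 CPM in 16-week PBS replicates 2 and 3, at 223 CPM in 8-week asparaginase replicate 1 and at 8.71 to 17.9 CPM in the other 7. White fat and mesothelium markers summed to 195 CPM in 8-week asparaginase replicate 1, to 26.3 to 27.6 CPM in the 3 treated libraries of 16 weeks and to 42.1 to 89.5 CPM in the other 8. Small structural RNAs set a further 3 libraries apart: 8-week asparaginase replicate 3 and 16-week asparaginase replicates 1 and 3 held 429, 261 and 257 CPM of 5S and other rRNA genes, against 3.45 to 10.6 CPM in the other 9. The same 3 held 416, 216 and 270 CPM of snRNA genes, against 2.39 to 6.63 CPM. The calls and 64 of the named genes were also fitted without each of the 12 libraries in turn. They and the main gene lists were also fitted without some of these libraries together. No list fit left out 16-week PBS replicate 2 or 3, which held acinar transcripts. The part of these differences in the results was not tested. The labelled sex matched the X- and Y-linked transcripts in all 12 libraries.

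A single gene passed the test of the difference itself. Cxcl13, the chemokine that draws B cells into lymphoid tissue, had opposite values of its response at the 2 ages, and it was the 1 gene with an adjusted p under 0.05 in edgeR's quasi-likelihood test (Benjamini-Hochberg over all genes, n = 3 per group), which is 0.00654% of the genes tested. Without adjustment 1583 genes, or 10.4%, had a p under 0.05, split evenly between positive differences (792 genes, 5.18%) and negative ones (791 genes, 5.18%). The median difference of all genes was 0.01 on the log2 scale, and 7915 of 15285 were above 0. DESeq2 on the same counts and design called 177 genes (1.2% of those with an adjusted p), 66 with a positive difference (0.449%) and 111 with a negative one (0.756%). When sex was fitted within each age in place of 1 common sex term, no gene passed in edgeR (0 calls, 1417 genes at an unadjusted p under 0.05), and limma-voom also called 0 (1523 at an unadjusted p under 0.05). Below, rose, fell and called are kept for an adjusted p under 0.05 in edgeR, and other members are given as values.

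Taken age by age, asparaginase raised 28 genes and lowered 29 at 8 weeks (0.183% and 0.19% of those tested), and raised 40 and lowered 14 at 16 weeks (0.262% and 0.0916%). Genes called at both ages numbered 9, with 0 in opposite directions. Among the 6 that rose were Asns, Psat1, Mthfd2 and Pck2, enzymes of asparagine, serine, one-carbon and mitochondrial phosphoenolpyruvate metabolism, with Adora1 and Rnf225. Among the 3 that fell were Sdf2l1, a chaperone-complex protein of the endoplasmic reticulum, and Tuba4a, a tubulin. Of these 9, Asns, Psat1, Mthfd2, Pck2 and Adora1 had a larger response at 16 weeks at an unadjusted p under 0.05, and none passed after adjustment. Of the 1583 genes with an unadjusted p under 0.05, 670 were higher with asparaginase at 8 weeks and lower at 16 weeks, and 634 were the reverse. Another 160 were higher at both ages and 119 lower at both. Selecting on the difference favours opposite signs. Over all genes tested the numbers were 3150, 3222, 4699 and 4214 in the same order. Both counts moved with single libraries. The 8-week count was 0 when 8-week PBS replicate 1 or 3, 16-week PBS replicate 2 or 16-week asparaginase replicate 1 was left out, 1 without 8-week asparaginase replicate 1 and 458 without its replicate 3. At 16 weeks the count ranged from 13, when PBS replicate 1 or asparaginase replicate 2 of that age was left out, to 84. With sex fitted within each age the counts were 0 at 8 weeks and 47 at 16 weeks. The 8-week and 16-week counts are not a test of which age responded more.

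**Figure D1:**
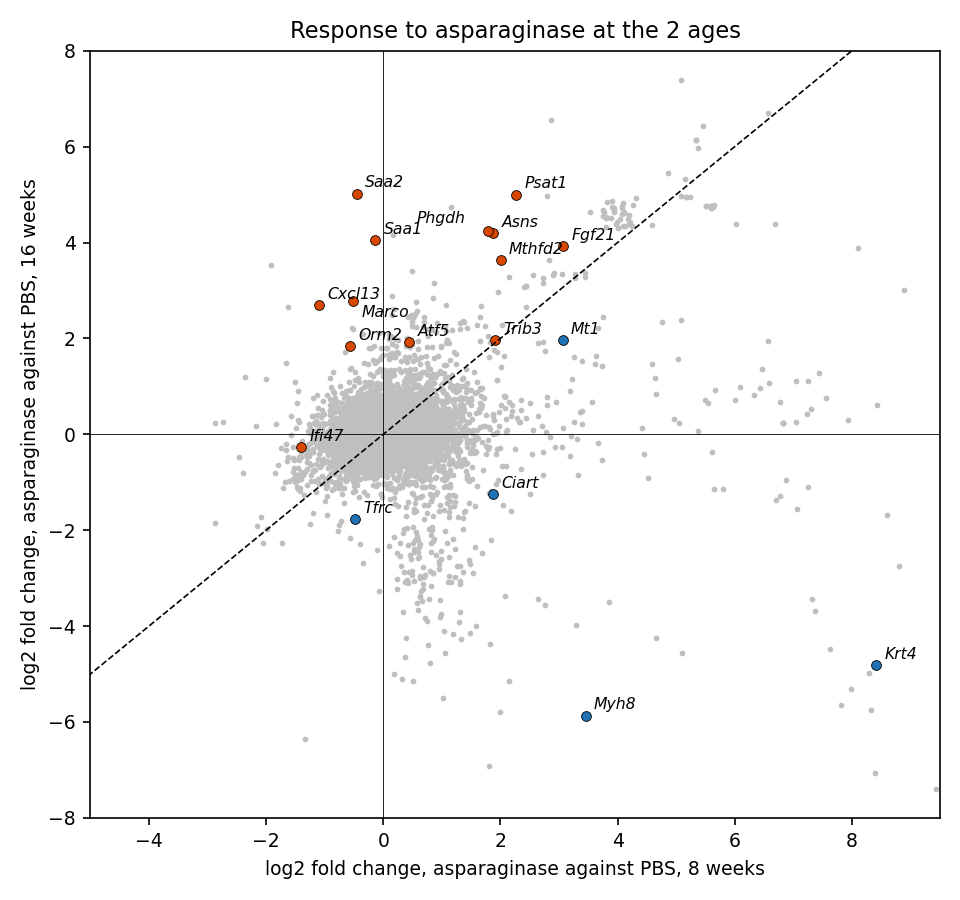
Log2 fold change of asparaginase against PBS at 8 weeks (horizontal axis) and at 16 weeks (vertical axis) for the genes tested, grey, with named genes in orange where the difference was positive and blue where it was negative. The dashed line marks equal responses, and 4 genes lie outside the axes. Cxcl13, Saa1, Saa2 and Marco lie near 0 or below it at 8 weeks and between 2.69 and 5.02 at 16 weeks, while Asns and Psat1 lie above the line on the positive side at both ages.

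Among the enzymes of asparagine and serine synthesis, Asns and Psat1 rose at both ages, with higher fold changes at 16 weeks. Asns, asparagine synthetase (GRCm38 chromosome 6, 7675169 to 7693254, minus strand), stood at 0.778, 3.4 and 0.797 CPM in the 8-week PBS libraries and at 3.65, 6.87 and 12.4 CPM in treated mice. The 16-week values were 0.65, 0.479 and 1.3 CPM in PBS mice and at 24.3, 24.1 and 11.4 CPM in treated mice. The PBS libraries of the ages overlapped, and among the asparaginase libraries only the highest at 8 weeks passed the lowest at 16 weeks. Asns rose by 1.88 (SE 0.26, adjusted p = 0.0267) on the log2 scale at 8 weeks and by 4.20 (SE 0.28, adjusted p = 0.000127) at 16 weeks. Its difference between the ages was 2.32 (SE 0.37, adjusted p = 0.148), which missed the threshold in edgeR.

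Psat1, phosphoserine aminotransferase of the serine pathway (chromosome 19, 15904678 to 15947337, minus strand), stood at 0.806, 0.714 and 0.948 CPM in PBS mice and 2.31, 5.64 and 4.9 CPM in treated mice at 8 weeks. At 16 weeks the values were 0.598, 0.428 and 0.454 CPM in PBS mice and 16.6, 15.3 and 17.9 CPM in treated mice. All 3 treated libraries of 16 weeks were above all others, and the 3 PBS libraries of 16 weeks were below all others. The rise was 2.27 (SE 0.31, adjusted p = 0.0267) at 8 weeks and 5.00 (SE 0.32, adjusted p = 0.000127) at 16 weeks, and the difference was 2.73 (SE 0.43, adjusted p = 0.148).

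Phgdh, the enzyme that starts serine synthesis, was listed at 0.361, 0.0857 and 0.259 CPM in PBS mice and 1.4, 0.517 and 0.294 CPM in treated mice at 8 weeks. At 16 weeks it was at 0.208, 0.353 and 0.242 CPM in PBS mice and 4, 5.93 and 2.48 CPM in treated mice, above every other library. It rose at 16 weeks by 4.23 (SE 0.61, adjusted p = 0.0185) and had a value of 1.78 (SE 0.60, adjusted p = 0.164) at 8 weeks. The difference of 2.45 (SE 0.85, adjusted p = 0.359) missed the threshold, and the counts behind these levels were low. Mthfd2, the mitochondrial folate enzyme, rose by 2.00 (SE 0.30) at 8 weeks and 3.64 (SE 0.31) at 16 weeks, with a difference of 1.64 (SE 0.42, adjusted p = 0.254). Psph, which completes serine synthesis, had a difference of 0.97 (SE 0.30, adjusted p = 0.306).

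Other targets of ATF4 varied in their values. Pck2, mitochondrial phosphoenolpyruvate carboxykinase, stood at 3.56, 2.08 and 3.19 CPM in PBS mice and 6.04, 4.63 and 5.03 CPM in treated mice at 8 weeks, while its 16-week values were 2.99, 3.07 and 2.12 CPM (PBS) and 8.3, 8.54 and 9.44 CPM (asparaginase). Treated libraries were above PBS libraries at both ages, and the treated libraries of 16 weeks were above all others. The difference was 0.86 (SE 0.18, adjusted p = 0.204). Atf5, a transcription factor of the same response, rose at 16 weeks by 1.93 (SE 0.34, adjusted p = 0.0423) from 91.8, 80.2 and 64.5 CPM to 299, 190 and 384 CPM. At 8 weeks it was at 169, 123 and 158 CPM in PBS mice and at 108, 209 and 265 CPM in treated mice, which overlap, and the difference was 1.48 (SE 0.46, adjusted p = 0.317).

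Trib3, the pseudokinase that ATF4 and CHOP induce, had nearly equal values at the ages: 1.90 (SE 0.40, adjusted p = 0.0624) at 8 weeks and 1.97 (SE 0.40, adjusted p = 0.0787) at 16 weeks, with a difference of 0.06 (SE 0.55). Treated libraries held 24, 25.5 and 23.5 CPM at 8 weeks and 17.8, 9.71 and 33.1 CPM at 16 weeks, each above the PBS libraries of its age. Fgf21, the fasting and stress hormone, had a difference of 0.85 (SE 1.09), with treated libraries at 1.93, 17.2 and 25 CPM at 8 weeks and 21.4, 5.77 and 6.83 CPM at 16 weeks, so that 1 library of each treated group stood away from its fellows. The mRNA of Atf4 itself differed by -0.26 (SE 0.19, adjusted p = 0.649), that of Ddit3, which encodes CHOP, by 0.07 (SE 0.43), that of the stress cytokine Gdf15 by 0.39 (SE 0.65) and that of Sesn2, a leucine sensor, by 0.61 (SE 0.29, adjusted p = 0.499). The signs of Trib3, Ddit3 and Gdf15 reversed in other settings, as did that of Fgf21 in 1 setting.

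Over the whole list of ATF4 and CHOP targets, 43 of 44 genes were tested. At 16 weeks 10 rose and 0 fell (0.262% and 0.0916% of all genes), and at 8 weeks 4 rose and 0 fell (0.183% and 0.19%). Their median log2 fold change was 0.45 at 8 weeks and 0.69 at 16 weeks, beside 0.01 over all genes at each age. In the difference 0 of the 43 were called in edgeR, and 14 were positive and 0 negative at an unadjusted p under 0.05 (5.18% of all genes in each direction). DESeq2 called 6, all positive (0.449% of genes with an adjusted p there). The median difference of the list was 0.39. It was 0.26 to 0.36 in 4 fits that leave out the squamous, the richest squamous and pancreatic or the small-RNA-rich libraries or give the last a term, with 10 to 13 positive and 1 to 4 negative at an unadjusted p under 0.05. At the ages taken singly, 19 were higher and 1 lower at 8 weeks at an unadjusted p under 0.05 (9.43% and 9.29% of all genes), and 23 were higher and 0 lower at 16 weeks (6.94% and 6.38%). All 3 treated libraries were above all 3 PBS libraries for 16 of the 43 at 8 weeks (7.77% of all genes) and for 25 at 16 weeks (11%), and below them for 3 (8.28%) and 0 (9.58%). Treated libraries of 16 weeks were above all 9 others for 13 of the 43 genes (30.2%, against 1.34% of all genes tested), and treated libraries of 8 weeks for 0.

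Aminoacyl-tRNA synthetases load transfer RNA with amino acids, and several are targets of the same response. Gars, the glycyl enzyme, stood at 30.3, 29.4 and 26 CPM in PBS mice and 27.3, 36.7 and 33.3 CPM in treated mice at 8 weeks, which overlap. At 16 weeks it stood at 24.9, 22.5 and 24.3 CPM with PBS, below all other libraries, and at 49, 47.4 and 46.9 CPM in treated mice, above all others. It rose at 16 weeks by 0.96 (SE 0.11, adjusted p = 0.00372), and the difference was 0.82 (SE 0.15, adjusted p = 0.148). Of 19 cytosolic synthetases tested, 17 had a positive difference, beside 7915 of 15285 over all genes. At an unadjusted p under 0.05, 8 of the 19 were positive and 0 negative (5.18% of all genes in each direction), and the median of the list was 0.32. Cars had a difference of 1.04 (SE 0.34), Sars of 0.61 (SE 0.20) and Farsb of 0.45 (SE 0.14), and none passed after adjustment. In the 4 fits that leave out or model the libraries that stand apart, 2 to 6 synthetases were positive at an unadjusted p under 0.05, and the median was 0.14 to 0.29.

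**Figure D2:**
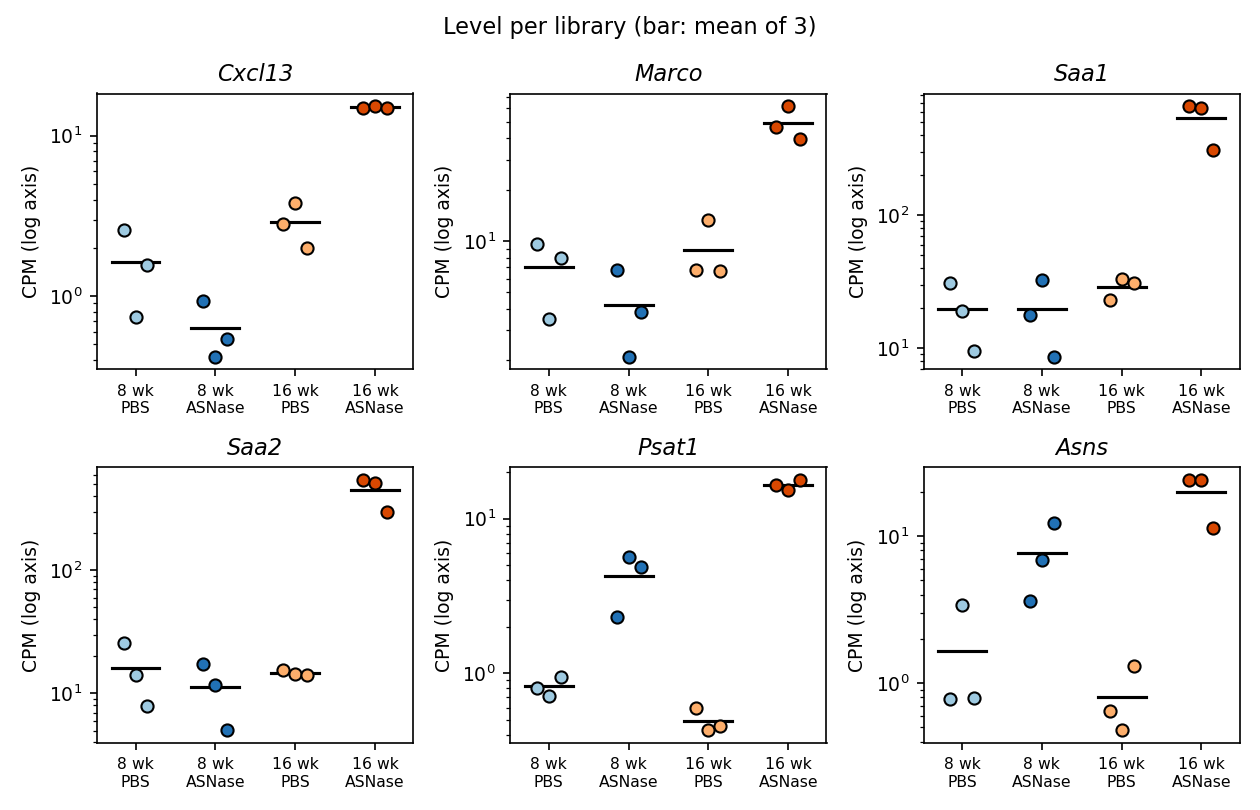
CPM (log axis) of Cxcl13, Marco, Saa1, Saa2, Psat1 and Asns in each of the 12 libraries, with the mean of 3 as a bar. The treated libraries of 16 weeks lie above all others for each gene except Asns, where one 8-week treated library reaches 12.4 CPM against 11.4 CPM in the lowest of 16 weeks.

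Promoters of 3 genes with a called rise at 16 weeks are shown because they hold the core of the element through which ATF4 acts. RefSeq (GRCm38.p6) gave an entry for 51 of 64 genes taken from the naming rule for the text. Where a gene had several windows, the first that held a match was printed. The core of the ATF4 element, TGATGNAA, was searched on both strands of the window from 250 bases before to 50 bases after the start. It lay in 3.97% of all 32851 windows and in 14 of 47 windows of the ATF4 and CHOP list (29.8%), a list that was in part built from known targets. The 250 bases before the start are printed 5′ to 3′ in the sense of the gene, with matches to TGATGNAA or its reverse complement in capitals, for Asns at chr6:7693210-7693459 (- strand), Pck2 at chr14:55540016-55540265 (+ strand) and Gars at chr6:55037751-55038000 (+ strand).
Asns: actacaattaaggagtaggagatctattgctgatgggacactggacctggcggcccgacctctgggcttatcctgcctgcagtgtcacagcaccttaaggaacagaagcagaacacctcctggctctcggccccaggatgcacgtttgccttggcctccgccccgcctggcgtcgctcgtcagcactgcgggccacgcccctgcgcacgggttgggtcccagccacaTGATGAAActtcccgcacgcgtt
Pck2: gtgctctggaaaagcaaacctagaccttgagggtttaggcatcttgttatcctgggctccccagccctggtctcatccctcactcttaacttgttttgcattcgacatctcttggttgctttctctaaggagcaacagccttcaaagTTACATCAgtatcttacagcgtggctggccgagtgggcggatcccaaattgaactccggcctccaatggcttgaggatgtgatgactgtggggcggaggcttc
Gars: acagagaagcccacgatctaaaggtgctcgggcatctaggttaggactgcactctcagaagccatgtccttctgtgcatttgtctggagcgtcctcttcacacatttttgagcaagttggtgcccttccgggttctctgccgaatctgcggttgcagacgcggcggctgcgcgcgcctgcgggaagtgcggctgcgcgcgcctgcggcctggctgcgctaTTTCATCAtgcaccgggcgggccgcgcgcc
In Asns the match lay 23 to 16 bases before the start on the gene's strand, in Gars 30 to 23 and in Pck2 103 to 96 bases before it on the other strand. All 3 genes rose at 16 weeks, and Asns and Pck2 also at 8 weeks. A match is a description of the letters and no evidence that a factor was bound there.

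Acute phase genes had a median response of -0.16 at 8 weeks and 0.61 at 16 weeks on the log2 scale. Of 36 tested, 6 rose at 16 weeks (0.262% of all genes). Saa1 and Saa2 encode serum amyloid A, the most inducible liver proteins of inflammation. Saa2 (chromosome 7, 46751790 to 46754313, plus strand) stood at 25.8, 14.2 and 7.97 CPM in PBS mice and 17.3, 11.7 and 5.03 CPM in treated mice at 8 weeks. The 16-week libraries held 15.5, 14.3 and 14.2 CPM in PBS mice and 547, 508 and 296 CPM in treated mice. The treated libraries of 16 weeks were above all others, and the 9 others overlapped. Saa2 rose at 16 weeks by 5.02 (SE 0.55, adjusted p = 0.0034), had a value of -0.45 (SE 0.46) at 8 weeks, and differed by 5.47 (SE 0.69, adjusted p = 0.0578), just outside the threshold. With 1 term for the 3 libraries rich in small structural RNA the difference was 5.87 with an adjusted p of 0.0221, and with all 18 libraries and sex within each age it was 5.12 with an adjusted p of 0.409 (5.11 and 0.113 with sex within each age in the 12 libraries).

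Saa1 lies beside it (chromosome 7, 46740497 to 46742980, minus strand). Its treated libraries of 16 weeks held 660, 636 and 311 CPM against 23.1, 33.3 and 30.9 CPM with PBS, and at 8 weeks 17.7, 32.8 and 8.65 CPM against 30.8, 19.1 and 9.63 CPM. It rose at 16 weeks by 4.05 (SE 0.56, adjusted p = 0.0152) and differed by 4.18 (SE 0.71, adjusted p = 0.148). Saa1 and Saa2 are close copies, as are the Orm genes, so how reads were shared between them is uncertain. Orm2, an orosomucoid carrier protein, rose at 16 weeks by 1.84 (SE 0.31, adjusted p = 0.0341), from 25.3, 32.2 and 19.6 CPM to 63.3, 97.8 and 77.1 CPM, and its 8-week libraries held 42.4, 16.2 and 20.3 CPM (PBS) and 20.3, 15.6 and 11 CPM (asparaginase). Its difference was 2.41 (SE 0.41, adjusted p = 0.148).

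The 3 fibrinogen chains are neighbours on chromosome 3 and encode the clot protein, itself an acute phase protein. Fga held 2373, 2137 and 2638 CPM in PBS mice and 2049, 2005 and 1959 CPM in treated mice at 8 weeks, and 2293, 2237 and 1952 CPM against 4214, 3869 and 3440 CPM at 16 weeks. It rose at 16 weeks by 0.86 (SE 0.13, adjusted p = 0.0255), and its difference was 1.08 (SE 0.18, adjusted p = 0.148). Fgg differed by 0.85 (SE 0.20) and Fgb by 0.84 (SE 0.21), with treated libraries of 16 weeks above all others for both. Hpx, hemopexin, which binds free haem, held 4416, 4562 and 2856 CPM in those libraries and 1665 to 2559 CPM elsewhere, a difference of 1.04 (SE 0.30, adjusted p = 0.292).

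Of 37 acute phase genes 36 were tested. The median difference was 0.69. At 16 weeks 6 rose and 0 fell (0.262% and 0.0916% of all genes), with 21 higher and 4 lower at an unadjusted p under 0.05 (6.94% and 6.38%). At 8 weeks 2 rose (0.183% of all genes), which were the metallothioneins Mt1 and Mt2, metal-binding proteins kept in this list. In the difference 0 were called in edgeR, and DESeq2 called 12, all positive (0.449% of genes with an adjusted p there). At an unadjusted p under 0.05, 20 were positive and 1 negative (5.18% of all genes in each direction). The summed level of the list was 28140, 26746 and 22403 CPM in the treated libraries of 16 weeks and 12895 to 16939 CPM in the 9 others, so the groups did not overlap. In the 4 fits that leave out or model the libraries that stand apart, the median difference was 0.64 to 0.83, with 16 to 22 positive at an unadjusted p under 0.05. Hamp, the iron hormone hepcidin and also a target of STAT3, differed by 0.54 (SE 0.35, adjusted p = 0.606), with treated libraries of 484, 486 and 315 CPM at 16 weeks that overlap the PBS library of 398 CPM. Mt1 rose at 8 weeks by 3.06 (SE 0.49, adjusted p = 0.0379), where replicate 1 held 428 CPM and the other 2 treated libraries 59.5 and 52.6 CPM. Its value at 16 weeks was 1.97 (SE 0.51, adjusted p = 0.137) and its difference -1.09 (SE 0.67).

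The STAT element, TTCNNNGAA, lay in 9 of 33 windows of the acute phase list (27.3%) and in 8.3% of all windows. It is palindromic, so both strands give the same match. The promoter of Fga, the fibrinogen gene with the smallest p of the difference, is printed as an example for Fga at chr3:83025903-83026152 (+ strand), with the match in capitals, 234 to 226 bases before the start. This window too was picked because it held a match.
Fga: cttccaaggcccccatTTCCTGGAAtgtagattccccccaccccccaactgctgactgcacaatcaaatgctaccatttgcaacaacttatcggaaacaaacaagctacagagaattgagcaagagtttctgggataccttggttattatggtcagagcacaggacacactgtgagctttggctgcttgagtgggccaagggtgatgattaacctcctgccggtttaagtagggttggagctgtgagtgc

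Genes of macrophages had a negative median response at 8 weeks and a positive one at 16 weeks. In bulk liver fewer cells of a type and less RNA per cell cannot be told apart. Marco, a scavenger receptor of Kupffer cells (chromosome 1, 120474538 to 120505024, minus strand), held 9.58, 3.48 and 7.93 CPM in PBS mice and 6.73, 2.09 and 3.82 CPM in treated mice at 8 weeks. The 16-week values were 6.73, 13.3 and 6.68 CPM in PBS mice and 46.6, 62 and 39.9 CPM in treated mice, above all other libraries. Marco rose at 16 weeks by 2.79 (SE 0.41, adjusted p = 0.0193), had a value of -0.52 (SE 0.40) at 8 weeks and differed by 3.30 (SE 0.54, adjusted p = 0.148).

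Cxcl13 (ENSMUSG00000023078, chromosome 5, 95956951 to 95961068, plus strand) held 2.58, 0.742 and 1.57 CPM in PBS mice and 0.932, 0.419 and 0.539 CPM in treated mice at 8 weeks. At 16 weeks it held 2.81, 3.83 and 2 CPM in PBS mice and 14.9, 15.3 and 14.9 CPM in treated mice. The treated libraries of 16 weeks were above all others, and the 8-week groups overlapped. Its response was -1.10 (SE 0.33, adjusted p = 0.125) at 8 weeks and a rise of 2.69 (SE 0.29, adjusted p = 0.0034) at 16 weeks. The difference was 3.80 (SE 0.42, adjusted p = 0.0342), the value that passed. It stayed positive, from 3.42 to 4.11, when each library was left out in turn, but kept an adjusted p under 0.05 in 3 of those 12 fits. It was lost with sex fitted within each age (3.45, adjusted p = 0.0772), without a sex term (3.74, adjusted p = 0.251), in limma-voom (3.67, adjusted p = 0.0764) and without both 8-week libraries rich in squamous transcripts (3.73, adjusted p = 0.334), and held without the 3 libraries rich in small structural RNA (4.24, adjusted p = 0.0437).

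The 28 Kupffer cell and macrophage genes had a median log2 fold change of -0.53 at 8 weeks and 0.24 at 16 weeks, and a median difference of 0.80, which was 0.69 to 1.23 in the 4 fits that leave out or model the libraries that stand apart, with 9 to 24 positive at an unadjusted p under 0.05. With all 12 libraries, at an unadjusted p under 0.05, 19 of the 28 had a positive difference and 0 a negative one (5.18% of all genes in each direction). None was called in edgeR (0 of 28), and DESeq2 called 4, all positive (0.449% of genes with an adjusted p there). Lyz2, lysozyme, held 91.8, 39 and 58.5 CPM in PBS mice and 32.4, 29.4 and 29.1 CPM in treated mice at 8 weeks, where the treated libraries were below all 9 others, and 59.9, 81.9 and 49.6 CPM against 87.8, 100 and 77.6 CPM at 16 weeks. Its difference was 1.53 (SE 0.34, adjusted p = 0.221). Adgre1, which encodes the F4/80 antigen, differed by 1.09 (SE 0.26, adjusted p = 0.23), and Cd14, the lipopolysaccharide coreceptor, by 1.61 (SE 0.40, adjusted p = 0.245). The list summed to 888, 556 and 792 CPM in PBS mice and 578, 487 and 471 CPM in treated mice at 8 weeks, which overlap, and to 873, 904 and 657 CPM against 792, 1043 and 830 CPM at 16 weeks, which also overlap. A positive median difference was not particular to macrophages among the immune cell lists. It was 1.08 for neutrophils (5 genes tested), 0.66 for T and NK cells (19) and 0.53 for B and plasma cells (19).

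The list of interferon-induced genes had a median response of -0.59 at 8 weeks and -0.26 at 16 weeks. Ifi47, an interferon-gamma induced GTPase, held 20.5, 13 and 19.3 CPM in PBS mice and 6.83, 5.29 and 5.74 CPM in treated mice at 8 weeks, below all other libraries. In 16-week mice it held 16.5, 14 and 7.98 CPM against 9.79, 9.58 and 8.51 CPM, which overlap. Ifi47 fell at 8 weeks by 1.40 (SE 0.19, adjusted p = 0.0267) and had a difference of 1.14 (SE 0.26, adjusted p = 0.222). Igtp, a GTPase of the same family, also fell at 8 weeks, by 1.34 (SE 0.21, adjusted p = 0.0379), and its difference was 0.56 (SE 0.28, adjusted p = 0.514). The guanylate-binding protein genes Gbp8 and Gbp2 had differences of 0.85 (SE 0.27) and 0.92 (SE 0.33), and Zbp1, a nucleic acid sensor, of 1.02 (SE 0.37). Of 43 interferon genes 4 fell and 0 rose at 8 weeks (0.19% and 0.183% of all genes). At 16 weeks 0 were called (0.353% of all genes). In the difference 0 were called in edgeR, with 1 positive call in DESeq2 (0.449% of genes with an adjusted p there). At an unadjusted p under 0.05, 10 were positive and 0 negative (5.18% of all genes in each direction). The median difference was 0.38, and 35 of the 43 were above 0, beside 7915 of 15285 over all genes. It was 0.45 to 0.75 in the 4 fits that leave out or model the libraries that stand apart, with 3 to 22 positive at an unadjusted p under 0.05. Without the 3 libraries rich in small structural RNA the 16-week median turned to 0.15.

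**Figure D3:**
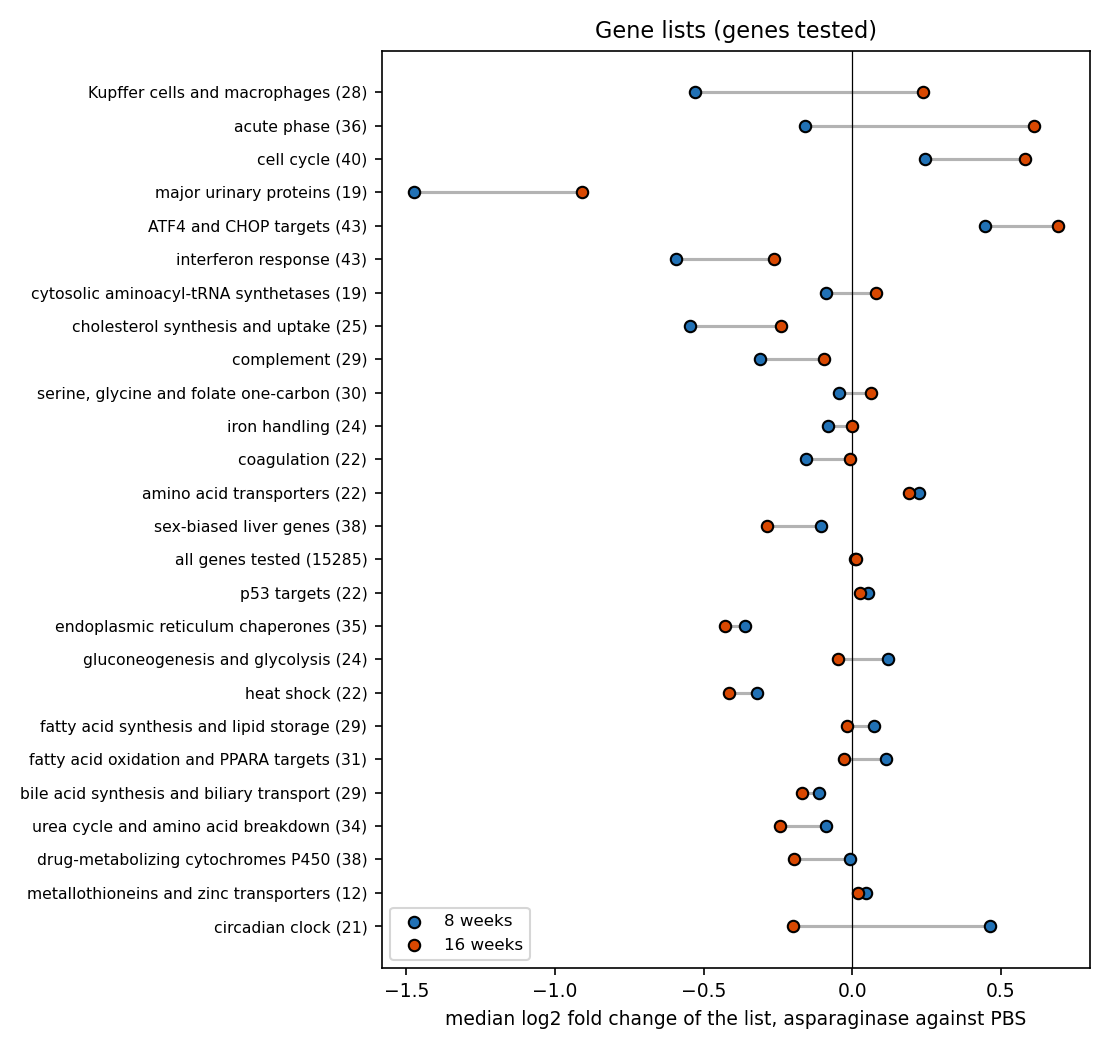
Median log2 fold change of asparaginase against PBS at 8 weeks (blue) and 16 weeks (orange) for each pathway list and the Kupffer cell list, sorted by the median difference, with the number of genes tested in brackets. Among the lists drawn, Kupffer cells (median difference 0.80) and the acute phase (0.69) are at one end and the circadian clock (-0.64) at the other. The other lists of cell markers are not drawn.

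Genes of the circadian clock went the other way. The clock is a loop in which ARNTL and CLOCK switch on the Per, Cry and Nr1d genes through E-box elements, and the products switch ARNTL and CLOCK off. Nr1d2, the repressor REV-ERB beta, held 57.7, 63.2 and 61.1 CPM in the 8-week PBS libraries and 100, 101 and 95.1 CPM in treated mice. At 16 weeks it held 89.2, 90.2 and 90.5 CPM in PBS mice and 92.5, 99.4 and 90.7 CPM in treated mice, so the 8-week PBS group alone stood below the others. Nr1d2 rose at 8 weeks by 0.69 (SE 0.08, adjusted p = 0.0267), had a value of 0.05 (SE 0.08) at 16 weeks and differed by -0.64 (SE 0.12, adjusted p = 0.152).

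Per1, a period gene, held 22.8, 25.2 and 14.2 CPM in PBS mice and 39.5, 40.3 and 44.2 CPM in treated mice at 8 weeks, which did not overlap, and 40.1, 33.3 and 44.9 CPM against 24.1, 30.1 and 35.4 CPM at 16 weeks, which did. Its difference was -1.40 (SE 0.29, adjusted p = 0.191). Ciart, a repressor of the clock, held 3.14, 12.2 and 1.7 CPM against 20.9, 20.9 and 19.8 CPM at 8 weeks, and 19.5, 20.6 and 25.5 CPM against 6.5, 11.9 and 11.8 CPM at 16 weeks. Groups did not overlap at either age, and the direction was opposite. The difference was -3.12 (SE 0.70, adjusted p = 0.221). Bhlhe41, which competes for E-boxes, differed by -2.01 (SE 0.38, adjusted p = 0.178).

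Of 21 clock genes 2 rose, Nr1d2 and Per3, and 0 fell at 8 weeks (0.183% and 0.19% of all genes). At 16 weeks 0 were called (0.353% of all genes). In the difference 0 were called in edgeR, and 12 were negative and 1 positive at an unadjusted p under 0.05 (5.18% of all genes in each direction). DESeq2 called 10 negative and 1 positive (0.756% and 0.449% of genes with an adjusted p there). The positive one was Arntl, the activator itself, which had values of -1.46 (SE 0.29, adjusted p = 0.0576) at 8 weeks and 0.29 (SE 0.30) at 16 weeks. The median difference was -0.64, and -0.77 to -0.48 in the 4 fits that leave out or model the libraries that stand apart, with 10 to 12 negative at an unadjusted p under 0.05. The 8-week PBS libraries lay below all others for 4 of the 21 genes (19%, against 1.69% of all genes). The labels give the same morning of injection and the same interval to sampling for all groups. The part of the hour of collection in these values was not tested.

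The E-box, CACGTG, was searched after these values were seen. It is palindromic, and it lay in 6 of 26 windows of the clock list (23.1%) and in 7.15% of all windows. A pair of promoters is printed with it in capitals: Ciart at chr3:95882229-95882478 (- strand), with matches starting 116, 58 and 44 bases before the start, and Per1 at chr11:69098699-69098948 (+ strand), with 1 match 166 bases before it. The window of each gene was picked because it held a match, so the presence of a match is no result. For Per1 the window lies within the annotated gene, which begins at 69095217.
Ciart: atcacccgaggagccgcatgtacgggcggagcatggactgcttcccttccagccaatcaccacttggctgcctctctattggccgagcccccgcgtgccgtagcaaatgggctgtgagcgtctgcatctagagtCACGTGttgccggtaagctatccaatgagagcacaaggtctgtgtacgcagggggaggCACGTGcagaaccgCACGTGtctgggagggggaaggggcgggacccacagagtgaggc
Per1: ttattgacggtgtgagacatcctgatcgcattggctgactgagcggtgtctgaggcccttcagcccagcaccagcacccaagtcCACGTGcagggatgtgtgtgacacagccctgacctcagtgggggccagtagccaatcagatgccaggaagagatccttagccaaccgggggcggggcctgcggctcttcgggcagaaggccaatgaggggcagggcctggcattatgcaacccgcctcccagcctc

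**Figure D4:**
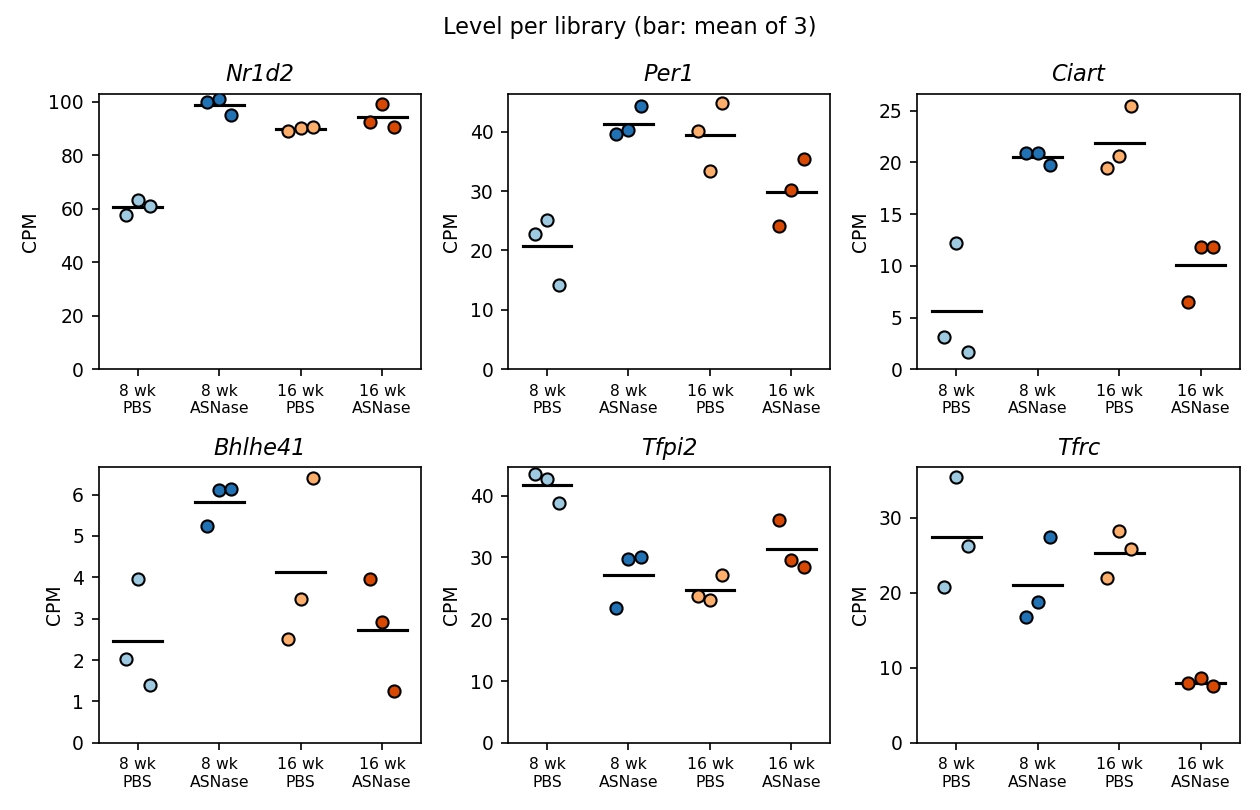
CPM (axes from 0) of Nr1d2, Per1, Ciart, Bhlhe41, Tfpi2 and Tfrc in each of the 12 libraries, with the mean of 3 as a bar. For Nr1d2 the 8-week PBS libraries lie at 57.7 to 63.2 CPM and the other 9 at 89.2 to 101 CPM, while for Tfrc the treated libraries of 16 weeks lie at 7.57 to 8.59 CPM, below all others.

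Tfpi2, an inhibitor of serine proteases, also turned on the 8-week PBS group. It held 43.6, 42.7 and 38.8 CPM there, above all other libraries, 21.8, 29.8 and 30.1 CPM in treated mice at 8 weeks, and 23.7, 23.1 and 27.2 CPM against 36.1, 29.6 and 28.4 CPM at 16 weeks. It fell at 8 weeks by 0.71 (SE 0.11, adjusted p = 0.0379), had a value of 0.27 (SE 0.11, adjusted p = 0.337) at 16 weeks, and differed by 0.97 (SE 0.15, adjusted p = 0.148). Mcc, a gene named for its mutation in colorectal cancer, was higher with asparaginase at 8 weeks in all 3 libraries and lower at 16 weeks in all 3, with a difference of -0.64 (SE 0.12, adjusted p = 0.178).

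Tfrc, Arhgef37 and Abcg5 fell at 16 weeks and missed the threshold at 8 weeks, and none of their differences between the ages passed. Tfrc, the transferrin receptor that takes up iron, held 20.8, 35.3 and 26.2 CPM in PBS mice and 16.8, 18.7 and 27.5 CPM in treated mice at 8 weeks. In 16-week mice it held 21.9, 28.2 and 25.8 CPM in PBS mice and 7.9, 8.59 and 7.57 CPM in treated mice, below all other libraries. Tfrc fell at 16 weeks by 1.77 (SE 0.19, adjusted p = 0.0034), had a value of -0.48 (SE 0.18, adjusted p = 0.194) at 8 weeks and differed by -1.28 (SE 0.25, adjusted p = 0.178). Arhgef37 fell at 16 weeks by 1.11 (SE 0.17, adjusted p = 0.0223), from 8.19, 8.47 and 7.68 CPM to 3.54, 3.16 and 4.09 CPM, and differed by -1.27 (SE 0.23, adjusted p = 0.148). Abcg5, part of the sterol exporter into bile, fell at 16 weeks by 0.85 (SE 0.11, adjusted p = 0.0126), from 85.2, 81.5 and 75.2 CPM to 33, 39.9 and 51.7 CPM, and differed by -0.71 (SE 0.15, adjusted p = 0.203). Abcc2, the canalicular exporter of conjugates, differed by -0.84 (SE 0.23, adjusted p = 0.279).

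Metabolic genes are given next by list members of smallest p. Plin4, a lipid droplet protein, held 24.3, 14.5 and 24.2 CPM in treated mice at 8 weeks, above all others, and 6.04, 5.33 and 6.48 CPM in treated mice at 16 weeks, with a difference of -1.91 (SE 0.40, adjusted p = 0.197). Fat cells also express Plin4, and the part of the white fat markers in its values was not tested. Gys2, liver glycogen synthase, differed by -0.87 (SE 0.26, adjusted p = 0.306), and its 8-week PBS libraries were below all others and its 8-week treated libraries above all others. Ppargc1a, a coactivator of gluconeogenic and mitochondrial genes, had treated libraries of 16 weeks at 3.14, 3.68 and 4.03 CPM, below all others, and a difference of -1.19 (SE 0.29, adjusted p = 0.231). Cps1, the entry enzyme of the urea cycle, and Sds, serine dehydratase, had differences of -0.60 (SE 0.22) and -0.95 (SE 0.40), again with the treated libraries of 16 weeks below all others. Over the 34 genes of the urea cycle and amino acid breakdown the median difference was -0.11. At an unadjusted p under 0.05, 4 were negative and 0 positive (5.18% of all genes in each direction). At 16 weeks 11 of the 34 were lower and 0 higher at an unadjusted p under 0.05 (6.38% and 6.94% of all genes), and 0 were called. The treated libraries of 16 weeks were below all others for 8 of the 34 (23.5%, against 2.2% of all genes tested).

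Chaperones of the endoplasmic reticulum had negative median responses at both ages. Hsp90b1, which encodes GRP94, held 439, 452 and 441 CPM in PBS mice and 255, 333 and 365 CPM in treated mice at 8 weeks, and 649, 541 and 592 CPM against 334, 357 and 345 CPM at 16 weeks. It fell at 16 weeks by 0.82 (SE 0.13, adjusted p = 0.0322), had a value of -0.53 (SE 0.14, adjusted p = 0.0923) at 8 weeks and differed by -0.29 (SE 0.18, adjusted p = 0.59). Of 35 chaperone genes 0 had an unadjusted p under 0.05 in the difference (10.4% of all genes). The medians were -0.36 and -0.43 at 8 and 16 weeks, and 1 and 3 genes fell (0.19% and 0.0916% of all genes). A p that misses the threshold does not show that the responses were equal.

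Markers of muscle, squamous epithelium and acinar pancreas had large negative differences, with list medians of -3.44, -6.35 and -5.19. Of the 22 acinar genes 0 had an unadjusted p under 0.05. Myh8, the perinatal myosin heavy chain of skeletal muscle, held 8.58, 2.63 and 6.23 CPM in PBS mice and 120, 31.6 and 11.6 CPM in treated mice at 8 weeks, and 1.3, 14 and 5.32 CPM against 0.0305, 0.129 and 0.0967 CPM at 16 weeks. Its difference was -9.32 (SE 1.37, adjusted p = 0.148). Smtnl1, a smoothelin-like muscle protein, fell at 16 weeks, where 2 of 3 treated libraries were at 0 and 1 at 0.0322 CPM, against 0.598, 0.932 and 0.181 CPM with PBS. Myh13, the extraocular myosin, Myl3, a myosin light chain, and Tcap, the titin cap, likewise had treated libraries of 16 weeks below all others, and Myh13 and Myl3 held 0 in 2 of them, so no fold is given for these. All 15 muscle genes tested had a negative difference at an unadjusted p under 0.05, against 5.18% of all genes. EdgeR called 0 of them and DESeq2 called 1, negative (0.756% of genes with an adjusted p there). For all 15 the treated libraries of 16 weeks were the lowest, against 2.2% of all genes tested. The median difference of the list was -3.02 to -1.93 in the 4 fits that leave out or model the libraries that stand apart.

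The muscle list summed to 819, 355 and 967 CPM in PBS mice and 2651, 400 and 174 CPM in treated mice at 8 weeks, and to 161, 299 and 52.2 CPM against 8.36, 24.4 and 7.67 CPM at 16 weeks. Krt13 and Krt4, keratins of squamous epithelium, held 346 and 268 CPM in 8-week asparaginase replicate 1, 181 and 142 CPM in replicate 2 and 3.65 and 3.19 CPM in replicate 3, and at most 6.17 CPM in any other library. Of 12 squamous genes 11 had a negative difference at an unadjusted p under 0.05, against 5.18% of all genes. DESeq2 called 9, all negative, which with other genes of these lists enter its 111 negative calls (0.756% of genes with an adjusted p there). These lists mark tissues other than liver, and the part of such tissue in the values was not tested. With the muscle, squamous and acinar markers taken out of the table, edgeR called 2 genes for the difference, both positive.

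**Figure D5:**
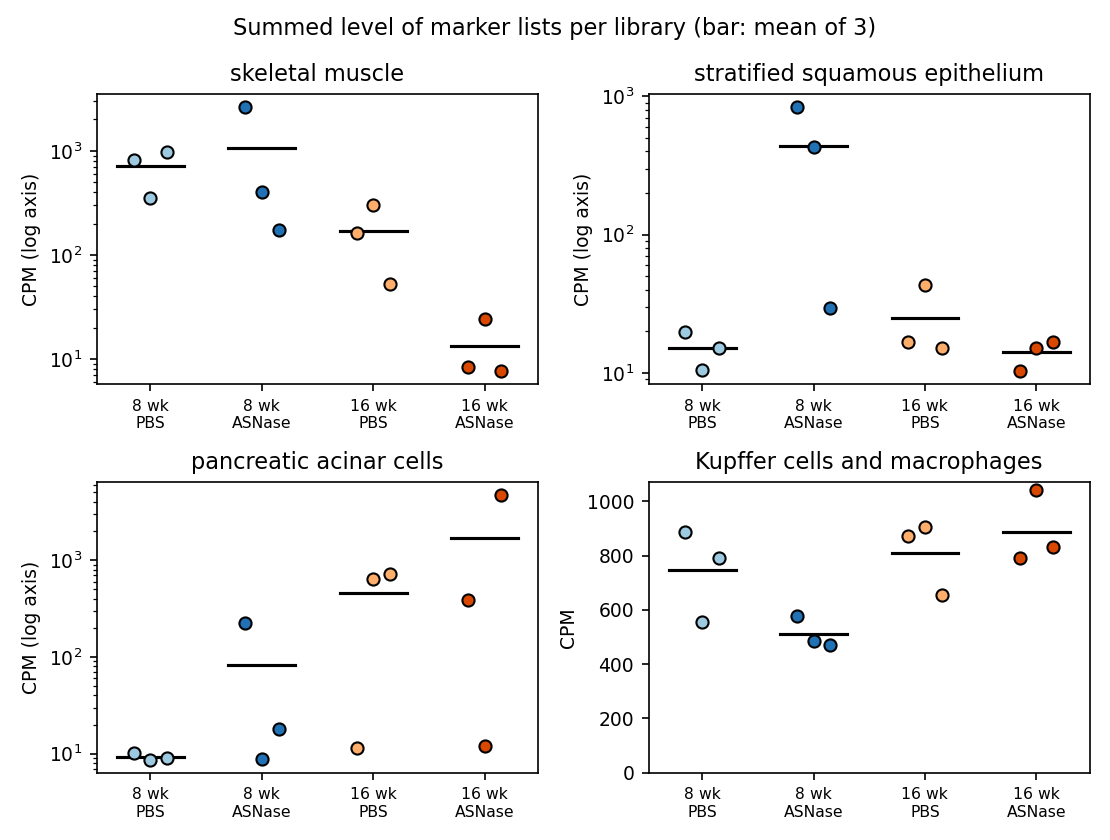
Summed CPM of the marker lists of skeletal muscle, stratified squamous epithelium, acinar pancreas (log axes) and Kupffer cells (axis from 0) in each of the 12 libraries, with the mean of 3 as a bar. Muscle markers lie at 7.67 to 24.4 CPM in the treated libraries of 16 weeks and at 52.2 CPM or more elsewhere, and squamous markers exceed 400 CPM in 2 of the 8-week treated libraries.

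The mean of the 2 responses was also tested, a contrast orthogonal to the difference and added after the data were seen. It called 354 genes (2.32%), 157 that rose (1.03%) and 197 that fell (1.29%). A large response at 1 age alone can pass this test, and 9 genes were called at both ages. Of the 157, 86 had the larger value at 16 weeks, and of the 197, 87 had the larger fall at 16 weeks. At an unadjusted p under 0.05, 61 of the 354 differed between the ages. Among the 157 were Asns, with a mean rise of 3.04 (SE 0.19), Psat1 of 3.63 (SE 0.23) and Trib3 of 1.93 (SE 0.29, adjusted p = 0.0121), and among the 197 were Tfrc with a mean fall of 1.12 (SE 0.13) and Igtp of 1.06 (SE 0.15). Saa1 and Saa2 also passed, with means of 1.96 (SE 0.38) and 2.28 (SE 0.35), while their 8-week values were below 0. The number called moved with single libraries, down to 38 when 16-week asparaginase replicate 3 was left out and up to 565 when 8-week PBS replicate 1 was.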

How the data were processed

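Gene counts were taken from the single table of 37315 genes and 18 libraries as the authors deposited it, for the 12 libraries of 8 and 16 weeks, 1 mouse each. The submitters' processing notes name TopHat2 2.0.9, TopHat, DESeq2, GRCm38 and mm10 without roles. The counter, annotation and strand setting: not given in the sources used here. Among 64 genes taken from the naming rule for the text, 18 share exons with an opposite-strand gene and 5 with a same-strand one. Among tested genes, 60 had counts equal to another gene's in all 12 libraries. GENCODE M21 (GRCm38) gave symbols for 35449 identifiers.

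Genes passed filterByExpr (minimum count 10, minimum total 15). Sizes were scaled by TMM, and edgeR 4.0.16 fitted a quasi-likelihood model with 1 term per group and 1 sex term common to both ages (7 residual degrees of freedom). The code was also run on simulated counts with known differences but no sex effect and no libraries that stand apart. That run does not show how the model performs on these libraries. An earlier analysis of these data used all 18 libraries with sex within each age, run here as an alternative beside DESeq2 1.42.0, limma-voom, other scalings, filters and libraries. P-values were adjusted by Benjamini-Hochberg over 15285 genes. Each SE is the size of the log2 fold change divided by the root of F. CPM use TMM-scaled sizes. Named genes were the 8 of smallest p of the difference in each direction with at least 1 CPM in a group, a fixed set, and up to 4 of each list described by smallest p; Arntl, Per3 and the genes called at both ages were named after their values were seen. The members and the 37 lists (942 of 951 entries found) were chosen with earlier results of these data known.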

Additional observations from a re-analysis of the deposited data

Results flagged for a closer look

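Cxcl13 was singled out because its response to asparaginase differed between the ages by the test of the difference itself, 3.80 on the log2 scale (SE 0.42, edgeR adjusted p = 0.0342). The treated libraries of 16 weeks held 14.9 to 15.3 CPM and every other library 3.83 CPM or less. The B cell list, whose cells this chemokine attracts, summed to 387 to 397 CPM in the treated libraries of 16 weeks and 366 to 501 CPM in the PBS libraries of that age. At 8 weeks it summed to 284, 317 and 340 CPM in treated libraries, below the 569, 362 and 466 CPM of the PBS ones. Of 19 B cell genes tested, 18 had a positive difference, beside 7915 of 15285 over all genes, with a median of 0.53. Their median response was -0.80 at 8 weeks and -0.0017 at 16 weeks. At an unadjusted p under 0.05, 2 of the 19 were positive and 0 negative in the difference (5.18% of all genes in each direction). The part of this list in the result of Cxcl13 was not tested. Groups of 3 are too small for a test of single outlying libraries.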

How the results depend on the processing

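No paired analysis was possible because replicate numbers only name libraries by accession order. The main counts were 1 for the difference, 57 at 8 weeks, 54 at 16 weeks and 354 for the mean. In the same order they were 177, 733, 464 and 1080 in DESeq2. The difference count was 0 in limma-voom, 3 with no low-count filter (247 at 8 weeks), and 2 with all 18 libraries and sex within each age. In the 12 libraries it was 0 with sex within each age (0 at 8 weeks) and 0 with no sex term (3, 22 and 85). Without both libraries with squamous transcripts, which leaves 1 in its group that is assumed to vary like the others, the counts were 3 (Cxcl13 not called: 3.73, adjusted p = 0.334), 2 at 8 weeks and 178 for the mean. At an adjusted p under 0.1 they were 2, 541, 141 and 936, and under 0.01 they were 0, 0, 12 and 31. Alternatives chosen after seeing the data gave 2 for the difference without markers of other tissues. Without the richest squamous and pancreatic libraries the counts were 3, 1, 16 and 5, without the 3 libraries rich in small structural RNA 6, 388, 17 and 16, and with a term for those 3 libraries 3, 184, 24 and 132. Leaving out each library gave 0 to 100 for the difference, 0 to 458 at 8 weeks, 13 to 84 at 16 weeks and 38 to 565 for the mean. The difference had 0 calls without 8-week PBS replicate 1 or 3, 16-week PBS replicate 2 or 3, 8-week asparaginase replicate 2 or 16-week asparaginase replicate 1 or 2, and 100, of which 90 were negative, without 8-week asparaginase replicate 3. That library is the treated one of its age with few squamous transcripts and also the one rich in small structural RNA, and the cause was not tested. It had 2 without 8-week PBS replicate 2, and leaving out 16-week asparaginase replicate 3 gave 4.

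Among the 64 genes taken from the naming rule, 4 with small differences reversed: Trib3 to -0.20 in limma-voom, and Ddit3, Trib3 and Gdf15 to -0.56, -0.046 and -0.013 without the squamous libraries. Ddit3 and Trib3 were at -0.52 and -0.48 without the richest libraries, Trib3 and Fgf21 at -1.04 and -0.20 without the libraries rich in small structural RNA, and Ddit3 and Trib3 at -0.10 and -0.24 with a term for them. Leave-one-out ranges were -0.48 to 0.42 for Trib3, -0.34 to 0.40 for Ddit3 and -0.068 to 0.90 for Gdf15. The others of these 64 kept their direction in the alternatives that gave a value. Genes named outside this set, among them Arntl, Per3, Slc39a14, Sdf2l1 and Tuba4a, were not followed through the alternatives. Scaling by RLE or without the Mup genes left the difference at 1 call. Total counts limit what low genes such as Phgdh can show.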

Other observations

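Genes of the cell cycle were described in no comparison above. Of 40 tested, 35 had a positive difference, beside 7915 of 15285 over all genes. At an unadjusted p under 0.05, 6 were positive and 0 negative, beside 5.18% of all genes in each direction (0 called in edgeR). The medians were 0.24 at 8 weeks and 0.58 at 16 weeks. At 16 weeks 16 were higher and 1 lower at an unadjusted p under 0.05 (6.94% and 6.38% of all genes), and 0 were called. Cholesterol synthesis and uptake genes had medians of -0.54 at 8 weeks and -0.24 at 16 weeks, and all 3 treated libraries were below all 3 PBS libraries for 19 of 25 genes at 8 weeks (8.28% of all genes) and for 3 of 25 at 16 weeks (9.58% of all genes). The difference had 0 of these 25 at an unadjusted p under 0.05. The major urinary protein genes, secreted pheromone carriers that are higher in males, summed to between 38926 and 657137 CPM over the 12 libraries. Genes with Mup names made up 5.39% to 47.9% of a library's counts. All 19 tested had a positive difference, beside 7915 of 15285 over all genes, with medians of -1.47 at 8 weeks and -0.91 at 16 weeks. Of the 19, 1 had an unadjusted p under 0.05 and a positive difference, as did 5.18% of all genes.

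Of 12 metallothionein and zinc transporter genes, 5 had a positive difference, with a median of -0.21. At an unadjusted p under 0.05, 2 were positive and 1, the zinc and iron importer Slc39a14, was negative (-0.42, SE 0.18). The iron handling list had 3 positive and 3 negative. Over all genes 5.18% lay under this value in each direction. Slc30a10, a manganese exporter, and Slc39a4, a zinc importer, had 8-week PBS libraries above all others and differences of 1.03 (SE 0.41, adjusted p = 0.418) and 0.71 (SE 0.28, adjusted p = 0.421). Hfe, the haemochromatosis protein, differed by 0.49 (SE 0.16, adjusted p = 0.34). Outside these lists Cbs, cystathionine beta-synthase, differed by 0.75 (SE 0.26, adjusted p = 0.356), with its 8-week PBS libraries above all others.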
